A study of Homo sapiens with 6 samples.

Results

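In a pooled survival screen of the hepatocellular carcinoma line HUH7, 124 of 7873 shRNAs were well represented in the plasmid pool and were less abundant in every selected cell population than in every measurement of that pool. These shRNAs were chosen on the counts themselves. Their mean raw count over the 3 input libraries was at least 100 and below 1000, and the highest of the 3 selected CPM (counts scaled to the library total) was at most 0.6 times the lowest of the 3 input CPM. The count range held 5580 shRNAs, so the 124 were 2.22% of those that could have been chosen. The mirror-image rule, in which the lowest selected CPM exceeded the highest input CPM by the same factor, took 45 shRNAs, or 0.806%.

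The screen used a library of short hairpins against long non-coding RNAs (lncRNAs) that HUH7 cells express, together with control hairpins for coding genes, reporters and resistance markers. The input library was the pooled plasmid DNA before virus was made, measured 3 times. The selected samples were 3 populations of HUH7 cells that had been transduced with the lentiviral pool, given puromycin from 2 days after transduction for 4 days, and then kept for 4 weeks. All 6 libraries count hairpin cassettes by sequencing, and the selected populations come from 1 cell line. Packaging, transduction, puromycin selection and growth all lay between the input and the selected samples, and their parts in a loss of hairpins cannot be told apart in this design.

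A short hairpin RNA is cut by Dicer into a small duplex, and its guide strand is loaded into an Argonaute protein. A guide that pairs fully with its target leads to cleavage of that RNA. The seed near the 5′ end of the guide can also pair with other transcripts in the manner of a microRNA, so that a single hairpin can lower RNAs it was not designed against. For this reason several hairpins are made for each transcript in such screens, and the behaviour of the other hairpins against the same RNA is read beside each one that drops out.

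The targets that follow are those whose values the results turn on, written as the sense strand 5′ to 3′. The capitals mark target positions 14 to 20, which pair with guide bases 2 to 8, the seed. Hairpins are numbered within a transcript by their order in the library. The first set holds hairpins with the lowest ratios of selected to input abundance.
NFKB2 NM_002502.3 shRNA 2: aggacatgactgcCCAATTTa
ENST00000556620 shRNA 4: tttatgctgctatAACAGAAc
MIR99AHG ENST00000418813 shRNA 1: tttactactgagcTGCAAAGg
ENST00000530837 shRNA 5: ctaaatcattcatGAAGAATc
SP3 NM_001017371.4 shRNA 1: ttcagatcttcagGGAAATTa
ENST00000514519 shRNA 5: tttccctctacacACAGAAAt

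The second set shares the seed carried by more of the 124 than any other seed.
COX10-AS1 XR_172189 shRNA 1: acaggcacacccaGCTAATTt
ENST00000554425 shRNA 1: gccacctctccctGCTAATTt

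The last set holds targets in known genes, protein-coding genes first and lncRNAs last.
SP3 NM_001172712.1 shRNA 5: gatagatagtacaGGTATATt
MLXIPL NM_032952.2 shRNA 4: tcatccacagcggTCACTTCa
NF2 NM_181832.2 shRNA 5: ctgaccatggtggTTTCATTa
NF2 NM_000268.3 shRNA 5: tccttccagtttgGCTGTTAt
FOXM1 NM_001243089.1 shRNA 3: ttctccaaattatCCTCTAAt
APC NM_001127510.2 shRNA 2: agtacaaggatgcCAATATTa
SMAD5 NM_001001419.1 shRNA 5: tgccacacgaaagAGAATATt
LIG4 NM_001098268.1 shRNA 1: ctctgcaagccgcAGTTAAAc
HULC NR_004855 shRNA 3: tgttcaacctgtgGCAAATTt
FTX ENST00000455395 shRNA 5: ggactcatactgtCGTGGAGa
OIP5-AS1 ENST00000501665 shRNA 4: caattcttctgccTCAGGTTc
LINC00511 ENST00000580948 shRNA 4: aggacctctacagGGCTGGAt

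Library totals ranged from 2323330 to 2612829 counts for the input and from 1525256 to 4013368 for the selected populations. The input libraries differed little more than counting noise allows, with a chi-square per degree of freedom of 1.09 to 1.12 between pairs. The selected populations differed far more, with 10.8 to 11.9. Nothing in the labels says that the input libraries were separate preparations, so the spread within a group may be partly technical. The p-values below count each input library as a replicate, and the calls rest on that. Changes are given below as log2(fold change) of input over selected, so that a positive value is a loss from the cells. A hairpin with a value of 0.75 or more and an adjusted p of at most 0.05 in edgeR's quasi-likelihood test was called depleted, and one at -0.75 or lower with the same p was called enriched. Of 7232 shRNAs tested, 494 (6.83%) were depleted and 423 (5.85%) were enriched. In the count range 330 of 5580 (5.91%) were depleted. All of the 124 were among these. The call uses the same counts as the rule and is no separate evidence, and the other 206 depleted shRNAs of the range missed the ratio limit.

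The 124 shRNAs kept a median of 41.3% of their input abundance, from 13.4% to 55.3%. The median log2(fold change) was 1.23, from 0.82 to 2.70. Most lay close to the limit that defined them. The ratio of the highest selected to the lowest input CPM was above 0.5 for 79, between 0.4 and 0.5 for 34, between 0.3 and 0.4 for 10, and below 0.3 for 1. The median share of input left was 40.3% in selected population 1, 44.7% in population 2 and 44.1% in population 3. All shRNAs of the count range held 96.7%, 98.3% and 99.1% there. Selected population 1, the shallowest library, had the lowest CPM of the 3 for 64 of the 124. The median coefficient of variation of the 124 was 4.71% among input libraries and 19.4% among selected populations, against 4.91% and 16% over the whole count range.

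The chosen share was higher at low counts. In the range of 100 to 200 input counts, 58 of 1375 (4.22%) were chosen. The share was 45 of 2204 (2.04%) from 200 to 400 counts and 21 of 2001 (1.05%) from 400 to 1000 counts. The mirror-image shRNAs numbered 25, 17 and 3 in the same bins. The part of counting error in these shares was not tested.

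The rule was also applied with each selected population left out in turn, as a description. When the rule was applied with selected populations 2 and 3 alone it took 193 shRNAs, and in population 1 these held a median of 50.8% of their lowest input CPM, with 124 (64.2%) at or below the limit of 0.6. In the same population 11.5% of all shRNAs in the count range were at or below that limit. Leaving out population 2 gave 200 shRNAs, of which 62.0% met the limit in that population against 7.53% of the range. Leaving out population 3 gave 208, of which 59.6% met it against 7.01%. Between 91.7% and 99.0% of these shRNAs were below their lowest input value in the population left out. The shRNAs that met the limit were the same 124 each time by construction, so the 3 shares are not separate evidence. The input libraries were the same throughout, so a low or high input reading is shared by both sides of this comparison. The shares of the range were not matched on input count, and the chosen share was higher at low counts. Nothing in the labels says that the selected populations were transduced separately.

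The edge of the rule was not a break in the data. Just inside it lay LMCD1-AS1 NR_033378 shRNA 5, with input CPM of 49.0, 50.8 and 46.6, selected CPM of 4.59, 22.9 and 27.9, and a ratio of 0.599. ENST00000552378 shRNA 3 had input CPM of 58.6, 57.7 and 54.4 and selected CPM of 17.7, 5.32 and 32.6. Both had 1 selected population well below the others. Just outside, LINC00314 NR_027246 shRNA 1 had input CPM of 137, 123 and 119 and selected CPM of 66.9, 59.5 and 71.3. LINC02484 ENST00000513843 shRNA 5 had input CPM of 43.6, 44.8 and 41.9 and selected CPM of 9.83, 19.3 and 25.2. Their ratio was 0.601, and their groups were as fully separated as those of the shRNAs inside.

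The lowest ratio, 0.271, belonged to a hairpin against NFKB2, which encodes the precursor of the p52 subunit of NF-κB. NFKB2 NM_002502.3 shRNA 2 had input CPM of 47.8, 67.6 and 58.7 and selected CPM of 0, 10.3 and 13. The count of 0 in selected population 1 allows up to 1.97 CPM at that depth, an upper limit of 3 counts that covers counting error only. Mean abundance was 58.0 ± 9.88 CPM in the input and 7.75 ± 6.84 CPM after selection (SD, n = 3), 7.49-fold lower. The 4 other hairpins against this transcript did not follow it. Their log2(fold change) was 0.67, -0.40, 0.05 and -0.38, and none was called in either direction by edgeR or DESeq2, although 1 fell and 2 rose at an unadjusted p under 0.05. Over all NFKB2 transcripts, 13 other hairpins were tested, of which 1 was depleted and 1 enriched, with a median of -0.11. The target had no exact place in the genome assembly GRCh37.

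SPEN-AS1 NR_024279 shRNA 3, against the antisense transcript of the SPEN locus, came next. It had input CPM of 71.2, 48.2 and 66.9 and selected CPM of 13.1, 15.3 and 14.7, a 4.32-fold lower mean. Its selected values were the tightest of the leading group, with an SD of 1.13 CPM. The target occurred at 1520 places in GRCh37, on exons of 19 genes. The other 4 hairpins against SPEN-AS1 gave -0.40, 0.44, 0.74 and 0.32 on the log2(fold change) scale, and the adjusted p was 0.042 and 0.039 for shRNA 2 and shRNA 4, whose size stayed under the limit.

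LINC00491 was the only transcript that 2 of the 124 shRNAs were designed against. ENST00000510145 shRNA 1 had input CPM of 47.1, 59.0 and 54.4 and selected CPM of 9.83, 7.31 and 16.4, 4.78-fold lower in the mean. shRNA 3 had input CPM of 163, 163 and 177 and selected CPM of 22.3, 60.8 and 55.8, 3.61-fold lower. The remaining hairpins against LINC00491 were split. shRNA 4 gave a log2(fold change) of -0.51 and shRNA 5 gave 0.62, with adjusted p of 0.016 and 0.019, and both missed the size limit. shRNA 2 had no count in the input and was not tested. The targets of the 4 measured hairpins lay at 70 to 1779 places in GRCh37, shRNA 3 at the fewest.

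The hairpin against MIR99AHG, the host transcript of the miR-99a, let-7c and miR-125b-2 cluster, was the lowest after selection. ENST00000418813 shRNA 1 had input CPM of 39.8, 38.3 and 43.8 and selected CPM of 1.31, 7.98 and 14. Its target lay at 1 place, chr21:17859839-17859859 on the plus strand of GRCh37, at the end of an exon of the lncRNA. The selected values ran from 1.31 to 14 CPM between populations, while the input values stayed within 38.3 to 43.8 CPM. Of the other 2 hairpins against this transcript, shRNA 3 gave a log2(fold change) of 0.48 with an adjusted p of 0.057 and shRNA 2 had a mean input count of 1 and was not tested. On another MIR99AHG transcript, ENST00000435697, shRNA 1 and shRNA 5 were both depleted, with log2(fold change) of 5.87 and 0.93. The first of these had a mean input count of only 24. Across the other MIR99AHG transcripts 11 hairpins were tested, of which these 2 were depleted and none enriched, and their log2(fold change) ran from -0.40 to 5.87 with a median of 0.50.

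Among the other hairpins with the lowest ratios, ENST00000556620 shRNA 4 had input CPM of 40.6, 43.5 and 48.9 and selected CPM of 13.8, 14 and 11.0. The 3 other hairpins tested against this chromosome 14 lncRNA gave -0.21, -0.20 and 0.10. ENST00000530837 shRNA 5, against a chromosome 11 lncRNA, had input CPM of 34.8, 45.6 and 43.8 and selected CPM of 10.5, 2.33 and 13. On the same transcript shRNA 1 and shRNA 4 gave log2(fold change) of 0.56 and 0.70 with adjusted p of 0.0052 and 0.0012, at mean input counts of 1072 and 751. shRNA 2 and shRNA 3 gave -0.39 and -0.29 at mean input counts of 22.7 and 25. ENST00000514519 shRNA 5 had input CPM of 70.8, 73.6 and 75.2 and selected CPM of 28.2, 23.3 and 24.9. One of its 4 companions, shRNA 3, was enriched, with a log2(fold change) of -1.24, and the others gave 0.07, 0.44 and 0.40.

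WDR11-DT ENST00000456120 shRNA 1 had companions that were called in the opposite direction. It had input CPM of 99.1, 94.7 and 101 and selected CPM of 26.9, 36.6 and 29.2. Against the same divergent transcript of the WDR11 locus, shRNA 4 and shRNA 5 were enriched, with log2(fold change) of -0.82 and -1.01. shRNA 2 and shRNA 3 gave 0.43 and 0.18 and were called in neither direction. The target of shRNA 1 occurred at 5127 places in GRCh37 and that of shRNA 4 at 21289.

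The 124 shRNAs were directed against 123 transcripts, each of which had at least 1 other hairpin that could be tested. The other hairpins were depleted about as often as any shRNA of the library. Of 431 tested, 20 (4.64%) were depleted and 26 (6.03%) enriched, beside 5.21% depleted and 5.95% enriched among all tested shRNAs outside the 124. Their median log2(fold change) was 0.01, and 219 of 431 (50.8%) were above 0. By adjusted p alone, 74 fell and 70 rose. Kept to the same count range as the 124, 9 of 333 (2.70%) were depleted and 16 (4.80%) enriched, beside 3.78% and 4.18% of the other shRNAs in that range. These 333 hairpins held a median of 97.1%, 101% and 97.8% of their input in the 3 selected populations. With 1 input library left out, 5 to 8 of the other hairpins were depleted and 14 or 15 enriched, while the depleted shRNAs of the whole library went from 494 to between 253 and 279.

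Counted by transcript, with the 124 left out, 20 of the 123 had another depleted hairpin and 23 had an enriched one. Of the 123, 4 had both and 84 had neither, LINC00491 with its 2 chosen hairpins among the latter. The 20 were 16.3% of these transcripts, with a mean of 3.50 other tested hairpins each, and among the 1542 tested transcripts without a chosen hairpin 318 (20.6%) had at least 1 depleted, with a mean of 4.33 tested hairpins each. No transcript had more than 1 depleted hairpin besides those among the 124. The 20 other hairpins ranged widely in depth. In LINC01409, a lncRNA of chromosome 1, shRNA 3 had input CPM of 44.8, 40.5 and 40.7 and selected CPM of 4.59, 14.6 and 18.2, and shRNA 2 was also depleted, with 65.9 CPM in the input and 24.6 after selection and a log2(fold change) of 1.37. Its other 3 hairpins gave -0.09, -0.06 and 0.08. In ENST00000366097, a lncRNA of chromosome 20, shRNA 2 had input CPM of 49.0, 52.1 and 60.3 and selected CPM of 20.3, 27.3 and 16.4. There shRNA 3 was depleted too, with a log2(fold change) of 3.78 at a mean input count of 34, and shRNA 4 moved the other way at -0.64 with an adjusted p of 0.040. LINC01843 NR_105045 shRNA 4 reached 2.95 from 38.2 CPM in the input. XR_252485 shRNA 4 had input CPM of 151, 151 and 145 and selected CPM of 61.6, 83.8 and 66.3, and shRNA 5 on the same transcript was depleted at 3.13 from a mean input count of 28.3. LINC00491, LINC01409 and ENST00000366097 were among the candidates that the study had picked from these same libraries, so their agreement is not independent of that choice. When the study retested its candidates with single shRNAs, it kept ENST00000366097 but not LINC00491 or LINC01409.

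A depleted and an enriched hairpin stood side by side with the chosen one on ZNF217-AS1, XR_253996 and XR_429844, among others. For ZNF217-AS1 NR_110051, shRNA 1 gave a log2(fold change) of 1.46 and shRNA 2 gave -0.85. On the same transcript as a chosen hairpin, 15 other hairpins had a target that shared at least 10 bases in a row with its target. Of these 15, 2 were depleted and 2 enriched. Across other transcripts of the same gene, 307 hairpins were tested. Among them 18 (5.86%) were depleted and 17 (5.54%) enriched, with a median of -0.02. These shares lay beside 5.21% depleted and 5.95% enriched among all tested shRNAs that were not chosen, whose median was also -0.02. With 1 input library left out, 3 to 6 of the hairpins on other transcripts of the same gene were depleted. GARS1-DT, a divergent lncRNA with many listed transcripts, had 2 of these depleted and 4 enriched. STX18-AS1 ENST00000499430 had 2 depleted, at 0.75 and 1.84, and 1 enriched at -1.30.

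Entries with the NM_ identifier of a protein-coding mRNA supplied 12 of the 124 hairpins, from 413 in the count range (2.91%). Entries with ENST, NR_ or XR_ identifiers, counted here as lncRNA hairpins, gave 2.16% of theirs. Some of these also lay in coding genes. ZNF518A ENST00000478086 shRNA 5 and ENST00000316045 shRNA 4 both had targets in its coding sequence. Over all entries, 51 of the 124 targets (41.1%) matched exons of a coding gene, beside 42.0% of the count range. The transcription factor SP3 and the tumour suppressor NF2 each had 2, on separate transcript entries. SP3 NM_001017371.4 shRNA 1 had input CPM of 95.7, 94.7 and 101 and selected CPM of 37.4, 16 and 31.1. SP3 NM_001172712.1 shRNA 5 had input CPM of 146, 150 and 141 and selected CPM of 59.7, 43.5 and 49.1, and its target was coding sequence at chr2:174820194-174820214 on the minus strand of GRCh37. Of the 8 other SP3 hairpins tested none was called, with a median of 0.15. NM_001172712.1 shRNA 4 came closest at 1.86 with an adjusted p of 0.051, from 36.0 to 8.92 CPM.

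NF2 encodes merlin, an upstream regulator of Hippo signalling that restrains growth. NM_181832.2 shRNA 5 had input CPM of 188, 193 and 188 and selected CPM of 92.4, 70.5 and 79.2. NM_000268.3 shRNA 5 had input CPM of 90.3, 86.5 and 89.6 and selected CPM of 49.2, 41.9 and 29.4. Both targets lay in untranslated sequence of NF2, at chr22:30093936-30093956 and chr22:30092389-30092409 on the plus strand. NF2 was the most densely covered of these genes, with 45 hairpins on 9 transcript entries. Of the 39 others tested, 2 were depleted and none enriched, and their median was 0.09.

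Among the remaining coding targets, MLXIPL encodes the glucose-responsive factor ChREBP. NM_032952.2 shRNA 4 had input CPM of 59.7, 58.5 and 57.5 and selected CPM of 24.3, 21.6 and 20.2, in coding sequence at chr7:73038666-73038686. Against the same transcript, shRNA 1 and shRNA 2 were enriched at -1.12 and -0.91, and shRNA 5 gave -0.58 with an adjusted p of 0.0018. All measured companions on this transcript thus moved opposite to the MLXIPL hairpin. Over all MLXIPL transcripts, 16 other hairpins were tested, of which 0 were depleted and 2 enriched. Their median was -0.13, and they ran from -1.12 to 0.87. FOXM1, a driver of mitotic gene expression, had NM_001243089.1 shRNA 3 with input CPM of 41.0, 39.2 and 43.8 and selected CPM of 5.90, 14.3 and 20.7. Of 20 other FOXM1 hairpins tested none was depleted and 3 were enriched, although shRNA 2 and shRNA 4 of the same transcript gave 1.54 and 0.46 with adjusted p of 0.081 and 0.018.

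SMAD5 transmits bone morphogenetic protein signals, and NM_001001419.1 shRNA 5 against it had input CPM of 273, 263 and 274 and selected CPM of 80.0, 140 and 120. The 4 companions of the SMAD5 hairpin all had positive values, 0.65, 0.50, 0.56 and 0.06, of which shRNA 2 and shRNA 3 had adjusted p of 0.040 and 0.011. None passed the size limit, and SMAD5 NM_001001420.1 shRNA 5 was enriched at -0.86. APC, the scaffold of the β-catenin destruction complex, had NM_001127510.2 shRNA 2 with input CPM of 187, 152 and 162 and selected CPM of 64.3, 69.8 and 80.5, at chr5:112173498-112173518 on the plus strand. The 14 other APC hairpins tested included 1 enriched and none depleted. LIG4, the ligase of non-homologous end joining, had NM_001098268.1 shRNA 1 with input CPM of 55.1, 49.1 and 47.0 and selected CPM of 21.6, 5.98 and 22.2. One of its 13 other tested hairpins was depleted, NM_206937.1 shRNA 2, with a log2(fold change) of 4.84 from a mean input count of 37.7. The hairpin against PRKDC, the catalytic subunit of DNA-dependent protein kinase in the same repair pathway, had input CPM of 113, 109 and 118 and selected CPM of 59.7, 58.2 and 53.1. None of the 8 other PRKDC hairpins tested was depleted and 1 was enriched. DESeq2 likewise called no other SP3, FOXM1, APC, PRKDC or SMAD5 hairpin depleted. At an unadjusted p under 0.05 with the same size limit, 1 other SP3 and 1 other FOXM1 hairpin and none for APC, PRKDC or SMAD5 would have been.

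One hairpin against the puromycin resistance gene was among the 124. Puro shRNA 3 had input CPM of 106, 109 and 99.0 and selected CPM of 50.5, 53.2 and 43.4. Puro shRNA 1 was enriched at -0.86, and Puro shRNA 4 gave 0.06. The reporter and resistance genes together gave 1 chosen hairpin of 35 in the count range (2.86%), beside 2.22% of the whole range. Of their 43 tested hairpins, 4 (9.30%) were depleted and 3 enriched, beside 6.83% and 5.85% of all tested shRNAs.

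Of the cancer-associated lncRNAs listed, 138 hairpins were in the count range and 4 were chosen (2.90%), beside 2.22% of the whole range. The 4 were against HULC, FTX, OIP5-AS1 and LINC00511. HULC, a lncRNA highly expressed in liver cancer, had shRNA 3 with input CPM of 139, 126 and 141 and selected CPM of 49.2, 60.5 and 72.3, at chr6:8653931-8653951 on the plus strand. The 3 other HULC hairpins tested gave 0.36, 0.26 and 0.17, and the first had an adjusted p of 0.048. The target in FTX, a lncRNA of the X-inactivation centre, lay at chrX:73511631-73511651 on the minus strand. FTX ENST00000455395 shRNA 5 had input CPM of 55.1, 52.1 and 54.8 and selected CPM of 19.7, 30.9 and 27.7, and none of 12 other FTX hairpins tested was called by edgeR or DESeq2, with 2 below and 3 above the input at an unadjusted p under 0.05.

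OIP5-AS1 ENST00000501665 shRNA 4 had input CPM of 85.7, 91.2 and 103 and selected CPM of 42.6, 36.6 and 35.1. OIP5-AS1 is an abundant cytoplasmic lncRNA, and its 29 other tested hairpins included 2 depleted and 3 enriched. LINC00511 ENST00000580948 shRNA 4 had input CPM of 52.4, 56.8 and 57.2 and selected CPM of 9.83, 25.9 and 24.9. On the same LINC00511 transcript shRNA 3 was depleted at 1.66, the only one of 13 others. The hosts of small nucleolar RNAs, whose introns carry those RNAs, had 73 hairpins in the count range. None was chosen, beside 2.22% of the whole range. Of their 89 tested hairpins, 9 (10.1%) were depleted and 3 enriched, beside 6.83% and 5.85% of all tested shRNAs. LINC-named transcripts gave 24 of 1264 (1.90%) and antisense-named transcripts 16 of 552 (2.90%).

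The 124 guides carried 109 different seeds, 11 of which occurred more than once and together covered 26 of the 124. The seed AATTAGC in the guide, which pairs with GCTAATT in the target, was carried by 6. They were LINC00605 NR_033938 shRNA 1, COX10-AS1 XR_172189 shRNA 1, ASAH1-AS1 NR_125429 shRNA 2, ENST00000554425 shRNA 1, XR_253996 shRNA 5 and LINC01827 ENST00000432711 shRNA 5. The seed was common in the library, with 98 hairpins against a maximum of 118 for any seed, and 72 of these were in the count range. The 6 were thus 8.33% of that range with this seed, beside 2.22% of all shRNAs in the range. None of the mirror-image shRNAs, which were only 0.806% of the range, had it.

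This seed group included the highest input abundance of the 124. LINC00605 NR_033938 shRNA 1 had input CPM of 294, 318 and 305 and selected CPM of 132, 141 and 134. ENST00000554425 shRNA 1 had input CPM of 357, 362 and 357 and selected CPM of 199, 180 and 191. The SD of the selected populations was 4.32 CPM for the first and 9.60 CPM for the second. COX10-AS1 XR_172189 shRNA 1 had input CPM of 66.2, 72.3 and 64.2 and selected CPM of 30.2, 17.6 and 25.7. LINC01827 ENST00000432711 shRNA 5 had input CPM of 92.2, 100 and 106 and selected CPM of 34.1, 35.9 and 46.1. ASAH1-AS1 NR_125429 shRNA 2 had input CPM of 125, 121 and 119 and selected CPM of 68.2, 58.5 and 53.1. XR_253996 shRNA 5 had the lowest input of the group, with 52.8, 49.9 and 48.2 CPM, and selected CPM of 20.3, 25.3 and 27.4. The designed transcripts of the 6 were all different, but the targets of XR_253996 shRNA 5 and LINC01827 ENST00000432711 shRNA 5 differed at only 2 bases.

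The other hairpins with this seed were not used by the rule beyond having missed it. Of 89 tested, 9 (10.1%) were depleted and none was enriched by edgeR, with the same counts by DESeq2, beside 5.21% and 5.95% of all tested shRNAs outside the 124. At an adjusted p of at most 0.05 whatever the size, 27 fell and 6 rose, and at an unadjusted p under 0.05, 29 fell and 12 rose. Leaving out input library 1 or 3 left 5 depleted, and leaving out selected population 2 gave 10 depleted and 1 enriched. Their median log2(fold change) was 0.08, and 52 of 89 were above 0. In the count range the 66 hairpins with this seed outside the 124 held a median of 88.6%, 90.3% and 80.1% of their input in selected populations 1, 2 and 3, where all 5456 other shRNAs of the range held 98.0%, 99.1% and 100%. The shift was downward in all 3 populations. Some of these targets also resembled the chosen ones beyond the seed. Of the 89, 26 were within 2 mismatches of one of the 6, and 4 of these were depleted, with a median of 0.26. Of the 63 more distant targets, 5 were depleted, with a median of 0.02. Many of these targets were repeats. With at most 100 places in GRCh37, 5 of 27 (18.5%) outside the 124 were depleted, and with more than 100 places, 4 of 62 (6.45%). Places in the genome moved with the share depleted, and their part in it was not tested. As 6 of the 124 with one seed prompted this comparison, it is given as a description with no test.

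The other shared seeds held 2 of the 124 each. AATATCT in the guide was carried by ENST00000425124 shRNA 1, with input CPM of 179, 180 and 201 and selected CPM of 75.4, 83.8 and 80.0, and by CROCCP2 ENST00000412962 shRNA 1, with 59.3, 50.4 and 58.3 against 30.2, 15.0 and 7.97. The 7 other tested hairpins with this seed had a median log2(fold change) of 0.36, with 1 depleted. AGTAGCT was carried by XR_251040 shRNA 1, with input CPM of 133, 118 and 142 and selected CPM of 62.3, 61.8 and 52.6, and by LINC01814 NR_110257 shRNA 3, with 57.8, 55.1 and 60.3 against 17.7, 27.6 and 32.4. Its 21 others had a median of 0.20, and 1 was depleted. Neither seed had an enriched hairpin.

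AATCACT linked LOC101928335 NR_110395 shRNA 3, with input CPM of 113, 111 and 111 and selected CPM of 45.9, 51.9 and 50.8, and LINC02447 NR_027441 shRNA 1, with 120, 114 and 106 against 53.1, 62.8 and 61.5. These targets differed at only 2 of their 21 bases. None of the other 30 hairpins with the seed was called by edgeR or DESeq2, 8 fell and 4 rose at an unadjusted p under 0.05, and their median was 0.04. ACTCCTG linked SPEN-AS1 NR_024279 shRNA 3 and RBFADN XR_431125 shRNA 4, the latter with input CPM of 72.0, 59.8 and 71.6 and selected CPM of 17.0, 19.3 and 32.6. Among the 17 others with ACTCCTG, 1 was depleted and 2 were enriched.

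Over all seeds of the 124, 612 other hairpins against other transcripts were tested. Of these 36 (5.88%) were depleted and 17 (2.78%) enriched, beside 5.21% and 5.95% of all tested shRNAs outside the 124. The median log2(fold change) was 0.07 for the same-seed hairpins and -0.02 for all tested shRNAs outside the 124. Without the seed AATTAGC, 28 of 535 (5.23%) were depleted and 17 (3.18%) enriched, with a median of 0.05. No difference from the background share was tested. With at most 100 places in the genome, 22 of 306 (7.19%) were depleted at a median of 0.15, and with more places 14 of 306 (4.58%) at -0.02. With 1 input library left out, 16 to 23 of the hairpins with a shared seed were depleted.

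A guide seed identical to that of a human microRNA in RefSeq (GRCh38.p14) was carried by 18 of the 124 (14.5%), beside 12.7% of the count range and 11.1% of the mirror-image shRNAs. The guide of ENST00000556620 shRNA 4 and that of LINC00511 shRNA 4 are set beside the microRNAs that begin alike, with the seed in capitals.
ENST00000556620 shRNA 4 guide: gUUCUGUUauagcagcauaaa
hsa-miR-4652-3p: gUUCUGUUaacccauccccuca
LINC00511 ENST00000580948 shRNA 4 guide: aUCCAGCCcuguagagguccu
hsa-miR-6720-5p: uUCCAGCCcugguaggcgccgcg
hsa-miR-6512-3p: uUCCAGCCcuucuaaugguagg

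Each of these seeds had no other tested hairpin in the library, so that the seed could not be separated from the target. The seed AAAGUGC of the miR-17 family, growth-promoting microRNAs of many tumours, was carried by 2 of the 124, LMCD1-AS1 NR_033378 shRNA 5 and XKR5 ENST00000618742 shRNA 1, whose whole targets differed at 1 base. Of the 28 tested hairpins with AAAGUGC in the library, 5 were depleted, these 2 included, and 2 were enriched, at a median of 0.04. All 3 other depleted and both enriched hairpins were among the 15 whose target was within 2 mismatches of one of this pair, and none of the 11 with more distant targets was called by edgeR. Shared seed and shared target therefore cannot be told apart for AAAGUGC. The seed AUUGCAC of the miR-25 and miR-92 family was carried by SIRPG-AS1 NR_110090 shRNA 2, with 15 tested hairpins in the library, of which 2 were depleted and 1 enriched.

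Targets that were nearly the same behaved differently in several cases. For 40 of the 124 the library held another target of 21 bases with at most 2 mismatches, and 3 such pairs lay within the 124. Of 184 other tested targets this close, 14 were depleted and 10 enriched, with a median log2(fold change) of 0.01. Among all 7108 tested shRNAs outside the 124, 370 (5.21%) were depleted and 423 (5.95%) enriched. With the seed also shared, 10 of 101 were depleted and 5 enriched, at a median of 0.14, and with another seed the median was -0.05. ENST00000569833 shRNA 3 was depleted at 1.25, while SOCS2-AS1 ENST00000500986 shRNA 1, with 1 mismatch outside the seed, was enriched at -0.94. SIRPG-AS1 NR_110090 shRNA 2 was depleted at 1.17, and of its neighbours with the same seed and 2 mismatches, GARS1-DT ENST00000584621 shRNA 3 was enriched at -1.02 and ENST00000621922 shRNA 4 depleted at 0.84.

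The targets of the 124 were slightly poorer in G and C than the rest, with 43.9 ± 8.50% (SD over targets) beside 46.3 ± 7.90% in the count range and 47.7 ± 7.21% among the mirror-image shRNAs. Within the seed the means were 35.8%, 39.6% and 45.1%. Of targets under 40% GC, 2.98% were chosen, against 2.07% from 40% to 55% and 1.37% above. In GRCh37, 48 of the 124 targets (38.7%) had 1 place, 33 (26.6%) more than 100 places and 10 (8.06%) none, beside 36.2%, 32.3% and 5.63% of the count range. A target with no place can lie across an exon junction or differ from the assembly. Of the 48 with 1 place, 33 lay in exons without coding sequence, 8 in untranslated sequence of coding genes, 5 in coding sequence, 1 in either by transcript and 1 outside genes of GENCODE release 44.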

How the data were processed

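Hairpin cassettes were sequenced in 3 input plasmid libraries and 3 selected HUH7 populations. The authors deposited raw counts per shRNA with the target and guide sequences. The submitters' processing notes name cutadapt 1.4.2, BWA 0.7.10 and SAMtools 1.3, and none of the count columns belonged to another sample (0).

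The 124 shRNAs and the gene lists were chosen with earlier results of these data known. CPM were counts over the library total. edgeR 4.0.16 (R 4.3.3) with TMM normalization and a quasi-likelihood test compared the groups for shRNAs that averaged 10 or more counts across the 6 libraries, and p-values were adjusted by Benjamini-Hochberg over all 7232 tested. The methods of the study used DESeq2, run here (1.42.0) as an alternative, as were other size factors, count minimums, libraries left out and a replicate block. Same-transcript, same-gene and same-seed hairpins were those outside the 124, and a seed had to be shared with no transcript in common.

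Named with their 6 values were the 10 lowest ratios, the 2 shRNAs on each side of the limit and transcripts with 2 chosen shRNAs. So were shared seeds (up to 6, most shRNAs first, ties by library order), protein-coding (NM_) or reporter targets, and listed lncRNAs and study candidates. Some other hairpins named as examples were chosen after their values were seen. Targets were matched exactly to GRCh37 on both strands and to GENCODE release 44 mapped to it, in Python 3.11.15. Gene symbols come from GENCODE or RefSeq, otherwise from the library. Results for some of the 124 targets are not reported here, and sequences are shown for some targets only. Precision is limited by counts of 89 to 933 in the input and 0 to 766 after selection, and intervals and floors cover counting error only.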

Additional observations from a re-analysis of the deposited data

How the results depend on the processing

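All 124 shRNAs were called depleted with DESeq2, RLE size factors, library totals alone, no count filter and the replicate block, and 96 were tested and called at a mean count of at least 100. With 1 library left out, 105 to 124 kept the call. The rule took 106 shRNAs on TMM-scaled CPM, 45 at a ratio limit of 0.5, 277 at 0.7, 66 from 200 input counts, and 134 to 208 with 1 library left out. At a mean count of at least 100, which tests fewer shRNAs, 306 shRNAs of the library, 10 same-transcript and 9 same-gene hairpins were depleted and 16 and 10 of the latter 2 sets enriched, and the same-seed and most-shared-seed medians were 0.042 and 0.20. In the count range of the 124, 9 same-transcript hairpins were depleted and 16 enriched.

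With 1 library left out, depleted and enriched calls ran from 253 to 603 and from 288 to 480 over the library, 5 to 25 and 14 to 32 for same-transcript, 3 to 24 and 11 to 22 for same-gene, 16 to 50 and 11 to 24 for same-seed, and 5 to 10 and 0 to 1 for most-shared-seed hairpins. The median of same-transcript hairpins ran from -0.01 to 0.02, of same-seed hairpins from 0.049 to 0.073 and of most-shared-seed hairpins from 0.039 to 0.15. The low ends for depletion came without an input library, whose groups then held 2 and 3 libraries.

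The seed shifted by 1 base gave 11 enriched same-seed hairpins and a median of 0.050. Without targets at over 100 places, an alternative chosen after seeing the data, 22 were depleted and 8 enriched at a median of 0.15. Library totals alone gave a same-seed median of 0.10. Replicate numbers did not pair the samples (correlations of deviations from -0.03 to 0.02). The replicate block gave medians of 0.078 for same-seed and 0.15 for most-shared-seed hairpins, with 22 same-transcript hairpins depleted, and changed no call of the 124. Leaving out Alu-like targets by a consensus was not run, since no consensus was used here. The cause of these changes was not tested. Depth limits the statements on hairpins with few input counts most.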
